A study of Homo sapiens with 6 samples.

Results

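The regions described here are the places where BRACHYURY (BRA) sites lay close together in differentiating human embryonic stem cells. H9 cells, an established line of human embryonic stem cells, were grown for 36 h with FGF2 (20 ng/ml) and the PI3K inhibitor LY294002 (10 μM). To this, FLyA medium added activin A (100 ng/ml) for endoderm progenitors and FLyB medium added BMP4 (10 ng/ml) for mesoderm progenitors. BRA-bound DNA was sequenced in 1 library for each medium and each of 2 antibodies, from R&D Systems and Santa Cruz, and the 2 input DNA libraries were not used here. All cells came from 1 line, and a peak list cannot show which of the cells in a culture carried BRA at a site.

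The clusters were chosen by the positions of the R&D Systems peaks alone. FLyA and FLyB peaks that overlapped by 1 bp or more were merged into regions, and regions no more than 10 kb from the next were joined into chains. Chains of 5 or more regions on chromosomes 1 to 22 and X were kept. This gave 469 chains that hold 2844 regions, called clustered regions here, out of 40932 merged regions on these chromosomes (6.95%) and 40940 on all chromosomes. A region is FLyA-only, FLyB-only or shared according to which of the R&D Systems lists has a peak in it.

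BRA is the founding member of the T-box family of transcription factors and is switched on in the primitive streak, the site through which cells pass at gastrulation to form mesoderm and endoderm. Activin signals through SMAD2/3 and favours the anterior streak and endoderm, whereas BMP4 signals through SMAD1 and favours the posterior streak and mesoderm. Developmental genes are often controlled by several enhancers spread along one locus, and transcription factors of early development can occupy many of these at once. A chain of sites is therefore a unit in which several binding events of one factor can be compared between the media over a short distance.

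The deposited files hold the positions of peaks with no height, and every peak is 400 bp wide. The submitters' processing notes name the hg19 build. On 13 of the 23 chromosomes the lists reach past the last gene of GRCh38, the build of the reference tables, so gene names were not attached to positions and all coordinates are hg19 as deposited, counted from 1. Read depth is unknown and there is no replicate of a medium with the same antibody. Shares have exact (Clopper-Pearson) 95% intervals that cover counting error only. They treat regions as independent, which neighbours are not, and so understate the spread that repeated experiments would show. No p-value was computed.

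The chains were short and mostly small. They spanned a median of 17.9 kb (4.38 to 59.4 kb) and 9.25 Mb in all, and 247 of the 469 held exactly 5 regions. There were 104 chains of 6, 53 of 7 and 65 of 8 or more, up to 16. Neighbouring clustered regions lay a median of 2559 bp apart, and 27.8% of the 2375 gaps were under 1 kb. In chains of 2 to 4 regions the median gap was 2756 bp, with 27.2% under 1 kb. Gaps in both kinds of chain are limited to 10 kb by the rule, so these values are a description only. Most clustered regions, 1987, came from a single peak. The rest were merged from 2 or more overlapping peaks, and the widest region was 915 bp. The shortest chain, of 5 regions, lay at chr2:135528897-135533272 and spanned 4.38 kb. The chain with the most regions for its length, 11.7 per 10 kb, was at chr2:8392995-8398973, with 3 FLyA-only, 2 FLyB-only and 2 shared regions in 5.98 kb.

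The rule has 2 thresholds, and many chains lie near them. Just inside, the 247 chains of 5 regions were 28.3% FLyA-only, 43.6% FLyB-only and 28.1% shared. Just outside, the 532 chains of 4 were 32.2%, 42.6% and 25.2%. In 60 chains the widest gap was between 9512 and 9998 bp, and 29 pairs of smaller chains would have joined into a chain of 5 or more across gaps of 10006 to 10479 bp.

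Clustered regions were bound less often in FLyA alone than other regions, and more often in FLyB alone or in both media. Of the 2844 clustered regions, 1229 were FLyB-only (43.2%, 41.4 to 45.1%), where 36.9% of all regions were. Another 855 were shared (30.1%, 28.4 to 31.8%), against 20.8% of all regions. The remaining 760 were FLyA-only (26.7%, 25.1 to 28.4%), against 42.3% of all regions. There were thus 1.62 FLyB-only regions for each FLyA-only region within chains and 0.838 outside them. These classes come from the same peaks that chose the chains, so they are a description and carry no test. Peaks of both lists count toward a chain, and the lists were of like length, with 25858 FLyA and 23682 FLyB peaks on these chromosomes. Chains took in 1618 FLyA peaks (6.26%) and 2089 FLyB peaks (8.82%).

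**Figure D1:**
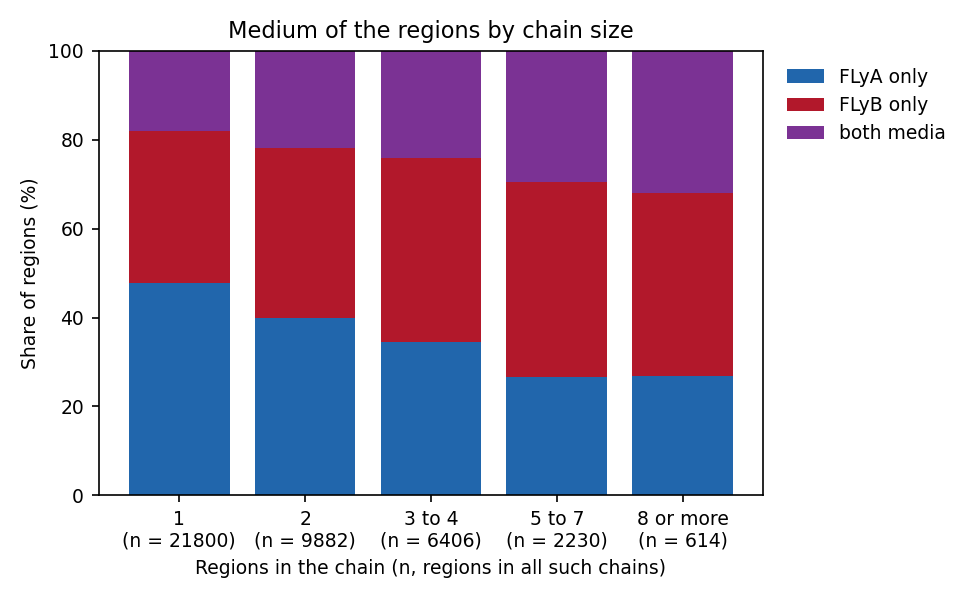
Share of merged regions (%, y axis) that were FLyA-only (blue), FLyB-only (red) or found in both media (purple), by the number of regions in their chain (x axis, with the number of regions n in all such chains). FLyA-only regions fall from 47.7% of single regions to 26.9% in chains of 8 or more, and shared regions rise from 18.2% to 31.9%.

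The mix changed in steps with chain size. Of the 21800 regions that stood alone, 47.7% were FLyA-only, 34.2% FLyB-only and 18.2% shared. In pairs these shares were 39.9%, 38.2% and 22%, and in chains of 3 to 4 they were 34.6%, 41.3% and 24.1%. Chains of 5 to 7 had 26.7%, 43.8% and 29.6%. In chains of 8 or more they were 26.9%, 41.2% and 31.9%, with counting intervals that overlap those of the step before. The plot of classes by chain size shows the fall of FLyA-only regions as far as chains of 5 to 7 and little change beyond.

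Chaining each medium on its own gave the same order. With 5 or more regions at the same gap, the FLyA list formed 99 chains and the FLyB list 202. Of these, 25 FLyA chains (25.3%) overlapped a FLyB chain, which is 12.4% of the FLyB chains. Sorted by this measure, 25 of the 469 chains held such a run in both media, 74 in FLyA alone and 175 in FLyB alone. The remaining 195 reached 5 regions only when the lists were put together.

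Most chains mixed the media. All 3 classes occurred in 262 chains (55.9%), and 18 chains (3.84%) held a single class, of which 14 were FLyB-only, 3 FLyA-only and 1 shared. FLyB-only regions outnumbered FLyA-only regions in 268 chains (57.1%), the reverse held in 144 (30.7%) and 57 were even. No FLyA-only region was present in 117 chains and no FLyB-only region in 41. In 50 chains (10.7%) both media were represented but no region was shared. Of all clustered regions 30.1% were shared, and how many chains would lack a shared region at that share was not tested. Read depth is unknown, so these calls do not show that BRA was bound at different places in the progenitors.

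**Figure D2:**
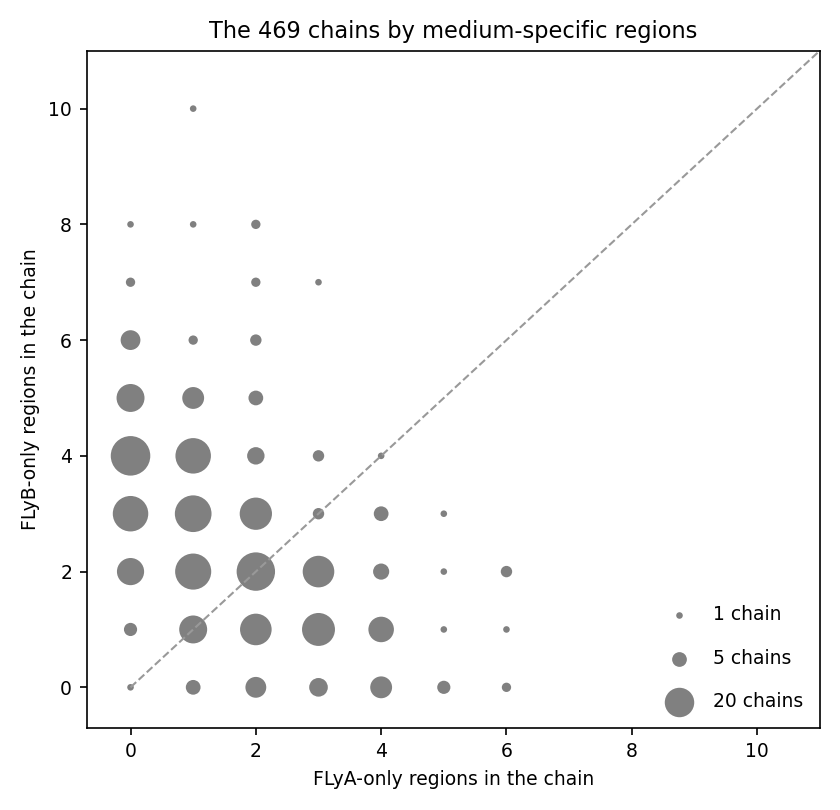
The 469 chains by their number of FLyA-only regions (x axis) and FLyB-only regions (y axis), with the area of a point proportional to the number of chains and a dashed line where the numbers are equal. FLyB-only regions reach 10 in a chain and FLyA-only regions 6, and 268 chains lie above the line against 144 below it.

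Within a chain, neighbours were of the same class about as often as regions farther apart. Of 2375 adjacent pairs of regions, 952 were of the same class (40.1%), and of 5478 pairs in the same chains that were not adjacent, 2188 were (39.9%). A FLyA-only region stood next to a FLyB-only region in 425 adjacent pairs (17.9%), and 18.8% of the pairs that were not adjacent were of this kind. Longer chains give more of the pairs that are not adjacent. Gaps between FLyB-only neighbours had a median of 2328 bp and gaps between FLyA-only neighbours of 2898 bp. A FLyA-only and a FLyB-only region lay less than 400 bp apart in 65 of the 425 pairs (15.3%), within the width of 1 peak, as did 18 of 217 FLyA-only pairs (8.29%) and 69 of 514 FLyB-only pairs (13.4%).

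At shared regions the peaks of the media coincided about as closely inside chains as outside. In 849 shared clustered regions made of 1 peak from each medium, the midpoints lay a median of 36 bp apart, with the middle of the distribution between 15 and 73 bp. In 7628 shared regions outside chains the median was 38 bp (17 to 75 bp).

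The chains with the most regions are described in turn. The largest, chr2:92272868-92323630, held 16 regions in 50.8 kb, 12 of them shared, which is the most shared regions of any chain. The next, chr10:42359052-42418492, held 15 regions in 59.4 kb, 8 of them FLyB-only and 5 shared. These lie beside long stretches without peaks and are taken up again with the Santa Cruz data.

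A pair of chains held 14 regions each. At chr17:35270332-35306881, 7 were FLyB-only, 4 shared and 3 FLyA-only in 36.6 kb, with a median gap of 1435 bp. At chr11:76470099-76519742, 7 were shared, 5 FLyB-only and 2 FLyA-only in 49.6 kb. The first is weighted to FLyB and the second to sites of both media.

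The chain of 13 regions, chr17:46644495-46696316, had the most FLyB-only regions of any chain, with 10 FLyB-only, 2 shared and 1 FLyA-only in 51.8 kb. The FLyA-only region was the last in the chain. Of the 4 chains of 12, chr17:55927287-55953817 was the most compact at 26.5 kb, with 6 shared and 3 of each other class and a median gap of 851 bp. Another, chr17:63542146-63573466, held 8 FLyB-only, 3 shared and 1 FLyA-only region. Both lie on chromosome 17.

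The other chains of 12 were evenly made up. At chr15:74494345-74538145 each class had 4 regions in 43.8 kb, and at chr9:129380473-129427775 there were 5 FLyA-only, 3 FLyB-only and 4 shared regions in 47.3 kb. Neither had a region on a Santa Cruz peak. The chain of 11 with the shortest span, chr5:139063155-139090928, held 6 FLyB-only, 3 shared and 2 FLyA-only regions in 27.8 kb.

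Chains with many sites of one class give the extremes of each medium. On the FLyB side, chrX:40005870-40033697 had 8 FLyB-only regions of 11 and chr17:75358285-75392786 had 8 of 9 with 1 shared and no FLyA-only region. On the FLyA side, no chain exceeded 6 FLyA-only regions, a number that 6 chains reached. The share was greatest in 3 of these, with 6 of 7 regions at chr12:113890986-113923535, with 1 shared, 6 of 9 at chr14:95229608-95250040 and 6 of 9 at chr14:68682904-68728288. The others had 6 of 10, at chr20:22543235-22592561 with 4 shared and no FLyB-only region, and at chr4:111535339-111558151 and chr17:37819965-37861726 with 2 of each other class. The chain with the most shared regions and no other class was chr5:73832448-73852194, with 6 of 6.

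Of the 14 chains that were FLyB-only throughout, the largest was chr20:57780011-57793670, with 7 regions in 13.7 kb, 3 of them on Santa Cruz FLyB peaks and none on a Santa Cruz FLyA peak. Others with 6 FLyB-only regions were chr17:23033-30801, chr1:38917284-38928942, chr4:109081088-109094809 and chr1:14717386-14731603. The 3 chains that were FLyA-only throughout had 5 regions each. They lay at chr8:6411542-6421072, chr7:140179124-140193166 and chr1:22768993-22788349 and spanned 9.53, 14 and 19.4 kb. None of them had a region on a Santa Cruz peak.

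**Figure D3:**
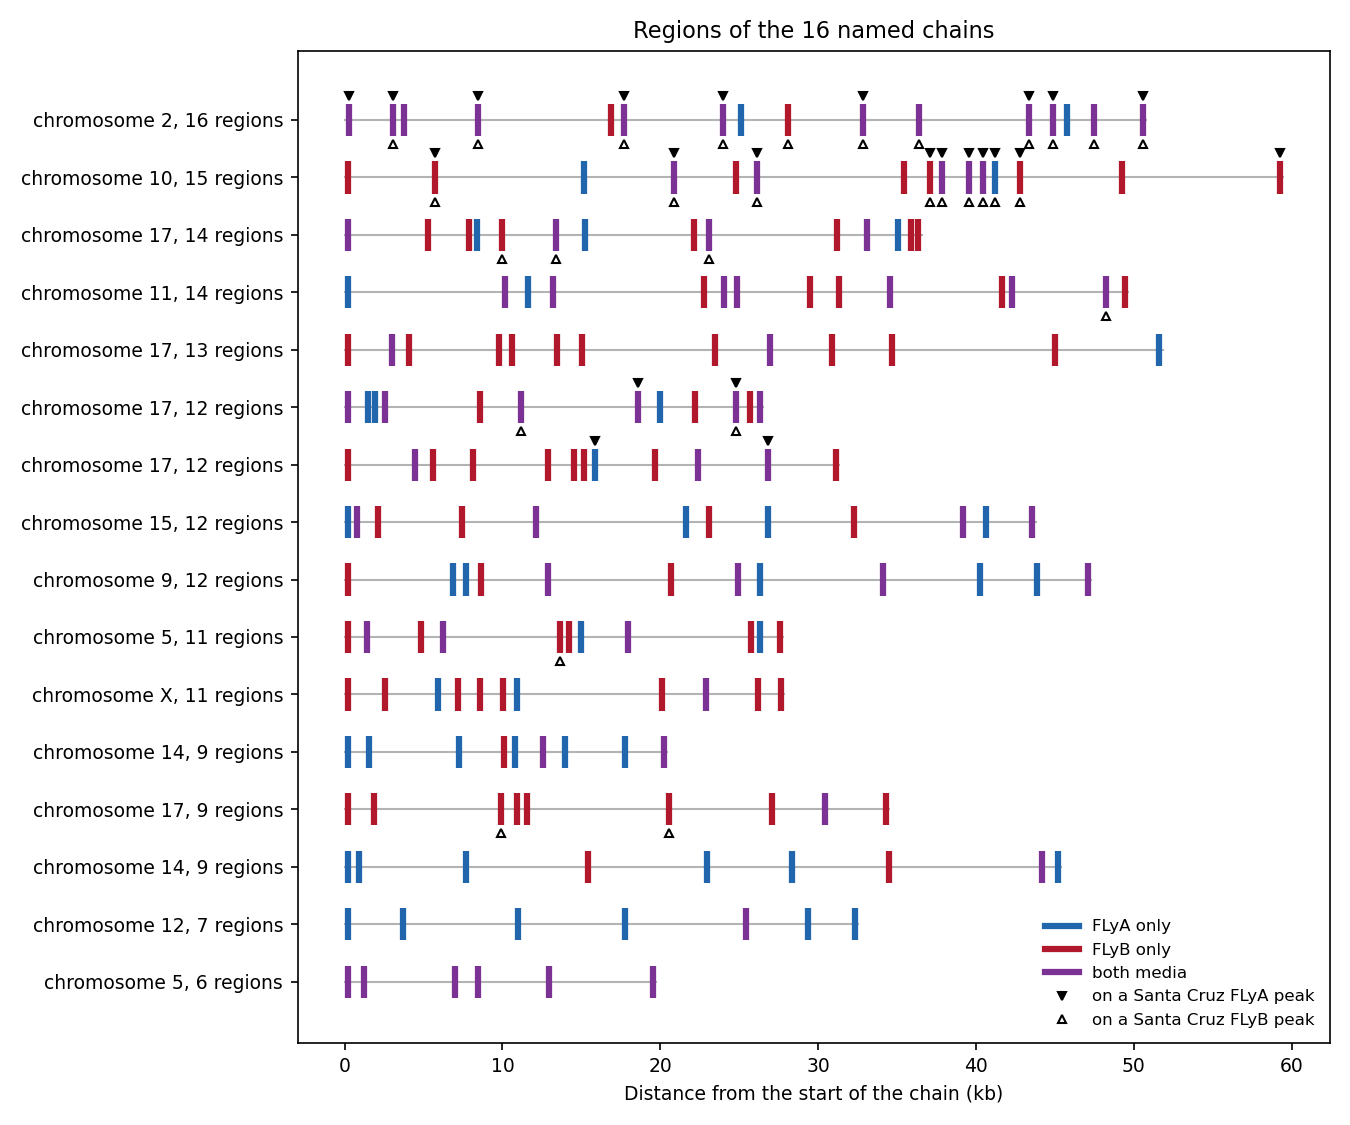
The 16 chains named for their number of regions or for their FLyA-only, FLyB-only or shared regions, each drawn from its start (x axis, kb) with a tick for every region in the colour of its class, and triangles at regions on a Santa Cruz FLyA peak (filled, above) or FLyB peak (open, below). The chains of 16 and 15 regions on chromosomes 2 and 10 carry 19 of the filled triangles, and FLyB-only ticks fill the chain of 13 on chromosome 17.

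Some chains had others close by. In 39 groups, 85 of the 469 chains (18.1%) lay within 100 kb of another chain. Around the chain of 13 on chromosome 17, chr17:46581110-46811706 held 4 chains with 31 regions, of which 19 were FLyB-only, 9 shared and 3 FLyA-only. At chr17:75358285-75476989, 3 chains held 15 FLyB-only, 6 shared and 1 FLyA-only region. A group weighted the other way lay at chr2:202746977-202916768, where 3 chains held 11 FLyA-only, 4 FLyB-only and 3 shared regions. Not every chain of a group followed the group's total, since the last of the 4 on chromosome 17 had 4 shared, 1 FLyA-only and no FLyB-only regions. At chr18:19639314-19766029 the chains pointed apart, with 5 FLyA-only and 1 FLyB-only region in the first and 1 and 6 in the second. FLyB-only regions were the more numerous in every chain of 15 groups and FLyA-only regions in every chain of 4. Another 11 groups held chains of both kinds, and the remaining 9 held 1 or more chains with equal numbers beside chains of at most 1 kind. Of the 6 groups of 3 or more chains, 3 were on chromosome 17.

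Chromosome 17 held more chains than any other chromosome. It had 62 of the 469 chains (13.2%) and 5.94% of all regions, and 17.2% of its 2433 regions were clustered (15.7 to 18.8%), against 6.30% of the regions on the other chromosomes (6.06 to 6.55%). It also had the most regions for its length, 30.0 per Mb up to its last peak, with 7.96 to 17.1 on the others, and the part of this density in its number of chains was not tested. Chromosome 20 came next with 3.02 chains per 10 Mb, after 7.65 on chromosome 17. Chromosome 19, with 15.1 regions per Mb, had only 4 chains and 2.79% of its regions clustered (1.82 to 4.10%), whereas chromosome 22, with 12.5 per Mb, had 11 chains and 10.2% clustered.

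**Figure D4:**
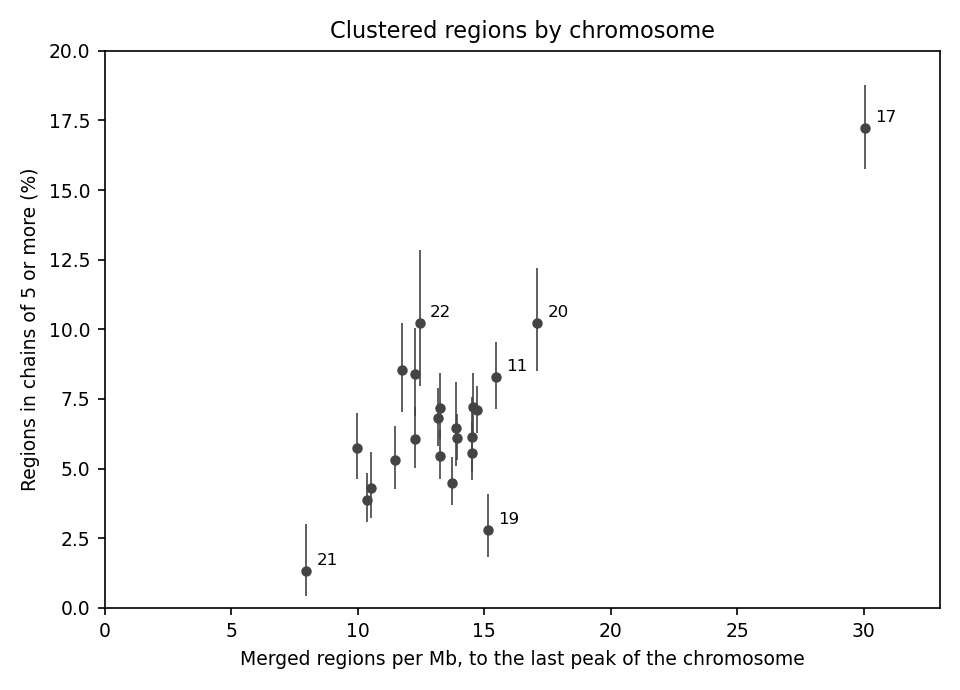
Share of each chromosome's regions that lie in chains of 5 or more (%, y axis, with exact 95% intervals) against its merged regions per Mb up to the last peak (x axis), 1 point per chromosome, with 6 chromosomes labelled. Chromosome 17 stands apart on both axes at 30.0 regions per Mb and 17.2%, and chromosome 19 has few clustered regions for its density.

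The excess of FLyB-only over FLyA-only clustered regions was spread over the genome. FLyB-only regions were the more numerous in 20 of the 23 chromosomes, FLyA-only regions in 2, and chromosome 13 had 19 of each. The gap was widest in proportion on chromosome 16, with 46 FLyB-only and 6 FLyA-only regions, and on chromosome 6, with 54 and 15. Chromosome 7 had 41 and 43. Clustered regions of chromosome 17 were 48.2% FLyB-only and 18.9% FLyA-only. Without this chromosome there were still 1.51 FLyB-only regions for each FLyA-only region in chains. Over all regions of the 23 chromosomes, 36.9% were FLyB-only and 42.3% FLyA-only. These shares are not given by chromosome here. The counts for single chromosomes therefore do not show whether a lean belongs to the chains or to all regions of that chromosome.

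The Santa Cruz libraries played no part in choosing the chains and give a second look at them. They are shorter lists, with 2430 FLyA and 3003 FLyB peaks on these chromosomes, so that most regions of any kind have no Santa Cruz peak. The paper treats the antibodies as replicates and reports high correlation of BRA binding between them in each medium. Its main text also reports, without numbers, less signal over noise and fewer unique reads with the Santa Cruz antibody. It therefore based its later analyses on the R&D Systems data. Of the clustered regions bound in FLyB, 289 of 2084 lay on a Santa Cruz FLyB peak (13.9%, 12.4 to 15.4%), where 10.1% of all FLyB regions did and 9.69% (9.30 to 10.1%) of those outside chains. Of the clustered regions bound in FLyA, 94 of 1615 lay on a Santa Cruz FLyA peak (5.82%, 4.73 to 7.08%), where 3.02% of all FLyA regions did and 2.83% (2.63 to 3.05%) of those outside chains. Most Santa Cruz peaks inside the chains' spans, which begin and end on a region, overlapped a region. Of 311 Santa Cruz FLyB peaks there, 300 overlapped a region (96.5%, 93.8 to 98.2%), and of 116 Santa Cruz FLyA peaks, 105 did (90.5%, 83.7 to 95.2%). These counts include the 6 chains described next, and the same share over all Santa Cruz peaks is not given here. Beside the 2430 Santa Cruz FLyA peaks, 780 FLyA regions in all lay on one. Beside the 3003 Santa Cruz FLyB peaks, 2376 FLyB regions did.

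Part of this came from 6 chains that stood apart. They lie within 200 kb of the longest stretch of their chromosome that has no peak in any of the 4 lists, a rule set after the Santa Cruz values had been seen. The stretches were 3.21 to 4.70 Mb long, and 5 of the 6 chains began or ended within 20 bp of one. On chromosome 2, chr2:92272868-92323630 had 9 of 16 regions on Santa Cruz FLyA peaks and 11 on Santa Cruz FLyB peaks. On chromosome 10, chr10:42359052-42418492 had 10 and 9 of 15, and its neighbour chr10:42529392-42539933 had 4 and 5 of 7. The chains at chr11:51567111-51591532, chr18:18511824-18520502 and chr19:27731841-27740837 had 4 and 4 of 8, 4 and 5 of 6, and 6 and 5 of 7.

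In all 6, at least 3 regions lay on Santa Cruz peaks of both media, and none of the other 463 chains had more than 2 such regions. They hold 59 of the clustered regions (2.07%) and 37 of the 105 that lay on a Santa Cruz FLyA peak (35.2%). Of these 59 regions, 33 were shared between the media in the R&D Systems lists (55.9%, 42.4 to 68.8%). The sequence of these places was not used here, and the part that repeats play in these chains was not tested.

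Without these 6 chains, the share of clustered FLyA regions on a Santa Cruz FLyA peak was 4.06% (3.14 to 5.16%) and that of clustered FLyB regions on a Santa Cruz FLyB peak was 12.5% (11 to 14%). Both stayed above the shares outside chains, with intervals that did not overlap, but chains also hold more shared regions, which were on Santa Cruz peaks more often than the others. Shared regions made up 52.2% of the clustered FLyA regions and 31.7% of the FLyA regions outside chains. With the class shares found outside chains weighted to the mix of clustered regions, a weighting chosen after the data were seen, the FLyA share would be 3.79%, within the interval of the 4.06%. The FLyB share would be 10.0%, below the interval of the 12.5%. The classes hardly moved, at 27.0% FLyA-only, 43.4% FLyB-only and 29.5% shared.

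By class, the difference of the regions bound in FLyB on Santa Cruz FLyB peaks lay in the shared regions. Among shared clustered regions, 192 of 855 were on a Santa Cruz FLyB peak (22.5%, 19.7 to 25.4%), against 14.6% of all shared regions, and without the 6 chains 20.1% were (17.4 to 23%), against 13.8% outside chains (13.0 to 14.6%). On Santa Cruz FLyA peaks were 76 (8.89%, 7.07 to 11%), against 6.31% of all shared regions. Without the 6 chains this share was 5.96% (4.44 to 7.80%), next to 6.02% outside chains (5.50 to 6.58%), so it was no higher within the counting interval. FLyB-only clustered regions were on a Santa Cruz FLyB peak in 97 of 1229 cases (7.89%, 6.45 to 9.54%), close to the 7.46% of all FLyB-only regions. FLyA-only clustered regions were on a Santa Cruz FLyA peak in 18 of 760 cases (2.37%, 1.41 to 3.72%), against 1.40% of all FLyA-only regions. Without the 6 chains this was 15 of 753 (1.99%, 1.12 to 3.26%), against 1.35% outside chains (1.18 to 1.54%).

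**Figure D5:**
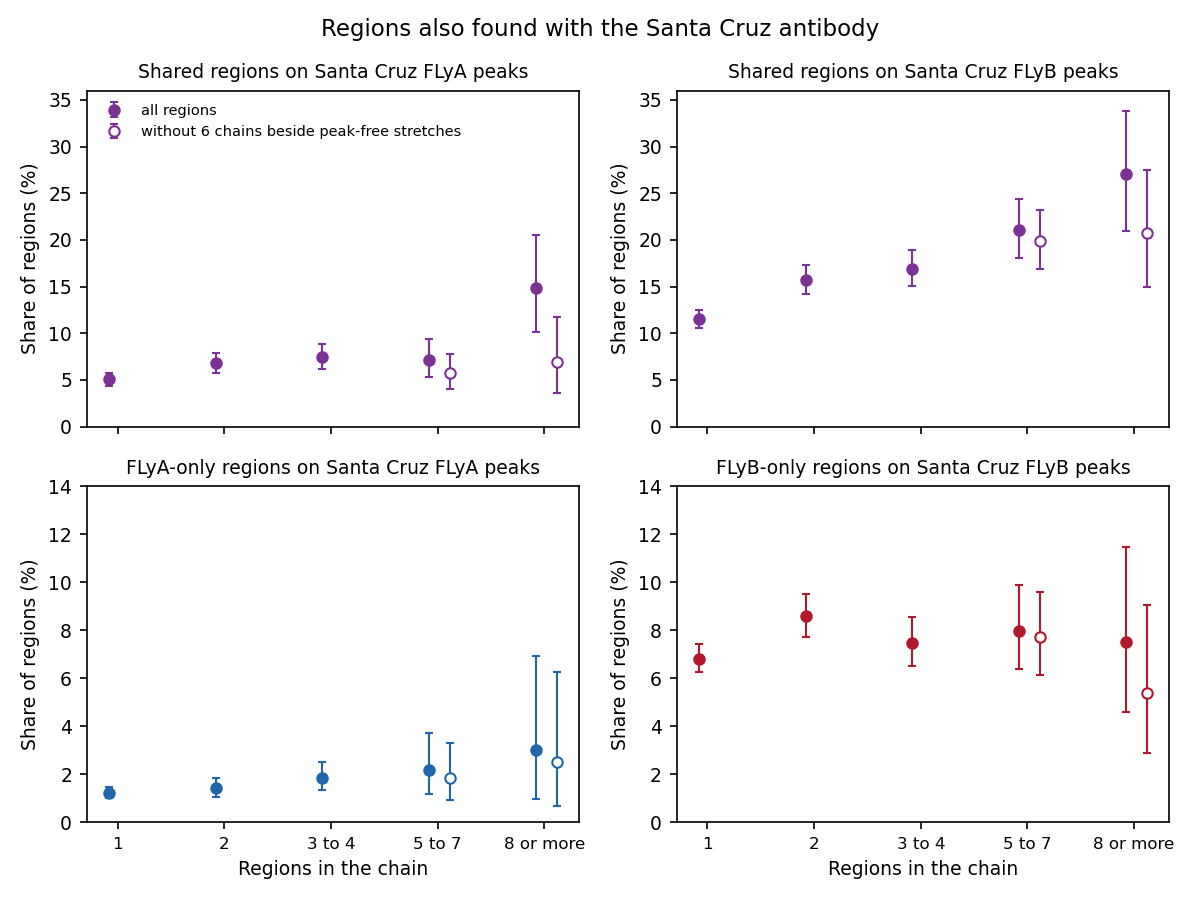
Share of regions (%, y axis, with exact 95% intervals) that overlapped a Santa Cruz peak, by the number of regions in the chain (x axis), for shared regions (purple), FLyA-only regions (blue) and FLyB-only regions (red); open points leave out the 6 chains within 200 kb of the longest peak-free stretch of their chromosome. Shared regions on Santa Cruz FLyB peaks rise from 11.5% of single regions to 27.0% in chains of 8 or more, or 20.7% without the 6 chains, and FLyB-only regions stay between 6.82% and 8.59% when all regions are counted.

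For shared regions the Santa Cruz FLyB share grew with chain size as far as chains of 5 to 7. From pairs onward, the intervals of neighbouring sizes overlapped. The share was 11.5% (10.5 to 12.5%) of single regions and 15.7% (14.2 to 17.3%) in pairs. It was 16.9% (15.1 to 18.9%) in chains of 3 to 4 and 21.1% (18.0 to 24.4%) in chains of 5 to 7. In chains of 8 or more it was 27.0% (21 to 33.8%). Without the 6 chains it was 19.9% (16.9 to 23.2%) in chains of 5 to 7. In chains of 8 or more it then came to 20.7% (14.9 to 27.5%), with overlapping intervals. The plot of Santa Cruz shares by chain size shows no such rise for FLyB-only regions, which were at 6.82% when single and 7.51% in chains of 8 or more. Without the 6 chains the latter was 5.39% (2.90 to 9.05%).

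The FLyB-only regions of chains were met mostly by Santa Cruz peaks of their own medium, and so were those outside chains. Leaving out the 6 chains, 88 of 1210 FLyB-only clustered regions lay on a Santa Cruz FLyB peak (7.27%, 5.87 to 8.88%) and 4 on a Santa Cruz FLyA peak (0.331%, 0.0901 to 0.844%). Outside chains these shares were 7.43% and 0.469%, both inside the intervals found in chains. Of 753 FLyA-only clustered regions, 15 lay on a Santa Cruz FLyA peak and 8 on a Santa Cruz FLyB peak (1.06%, 0.460 to 2.08%), with overlapping intervals. Outside chains, 224 of 16545 FLyA-only regions (1.35%) lay on a Santa Cruz FLyA peak and 41 (0.248%, 0.178 to 0.336%) on a Santa Cruz FLyB peak. The counted share of FLyA-only regions on Santa Cruz FLyB peaks was thus 1.06% in chains and 0.248% outside. Their intervals did not overlap, but they treat neighbouring regions as independent, and the share in chains rests on 8 regions. Regions in chains lie close together, and 1 Santa Cruz peak can meet 2 neighbours. At chr2:118607594-118612742, with 4 FLyA-only and 1 FLyB-only region, 1 Santa Cruz FLyB peak met 2 regions. The part of this closeness in the share was not tested.

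Whole chains were compared without the 6 chains as well. In the 150 chains with at least 3 more FLyB-only than FLyA-only regions, a threshold set after the data were seen, 109 of 954 regions were on Santa Cruz FLyB peaks (11.4%, 9.48 to 13.6%) and 14 on Santa Cruz FLyA peaks (1.47%, 0.805 to 2.45%). In the 46 chains with at least 3 more FLyA-only regions, 10 of 287 were on Santa Cruz FLyB peaks (3.48%, 1.68 to 6.31%) and 9 on Santa Cruz FLyA peaks (3.14%, 1.44 to 5.87%). At least 1 region on a Santa Cruz FLyB peak was present in 78 of the 150 chains (52.0%, 43.7 to 60.2%) and in 9 of the 46 (19.6%, 9.36 to 33.9%). The other 267 chains had 9.20% of their regions on Santa Cruz FLyB peaks (7.80 to 10.7%) and at least 1 such region in 40.8% of chains (34.9 to 47.0%). Chains weighted to FLyA had lower shares on Santa Cruz FLyB peaks than either other kind, and only the intervals of those 2 kinds overlapped. The kinds differ by the rule in their mix of classes. FLyA-only clustered regions were on Santa Cruz FLyB peaks in 1.06% of cases, FLyB-only in 7.27% and shared in 20.1%. The shares of chains were not weighted for this mix, and its part in the difference was not tested. For Santa Cruz FLyA peaks the shares of chains were 7.33% (3.72 to 12.7%) with the weight to FLyB, 19.6% (9.36 to 33.9%) with the weight to FLyA and 15.0% (10.9 to 19.8%) in the others, with intervals that overlap.

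Outside the 6 chains, the chain met most often by the second antibody was chr11:56978360-57010115, where 5 of 11 regions lay on Santa Cruz FLyB peaks and none on a Santa Cruz FLyA peak. It had 5 shared, 4 FLyB-only and 2 FLyA-only regions in 31.8 kb. Next was chr15:90289082-90327172, with 4 of 9 regions on Santa Cruz FLyB peaks and 1 on a Santa Cruz FLyA peak. It had 5 FLyB-only, 4 shared and no FLyA-only regions. The chain of 14 at chr17:35270332-35306881 had 3 regions on Santa Cruz FLyB peaks and none on a Santa Cruz FLyA peak. A Santa Cruz peak of either medium met at least 1 region in 219 of the 463 chains (47.3%, 42.7 to 52.0%). At the length of these lists, the lack of a Santa Cruz peak in the others does not show that their regions were unbound.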

How the data were processed

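BRA ChIP-seq libraries of H9 cells in FLyA and FLyB medium were sequenced by the authors on a Genome Analyzer II. Per the labels, the submitters' processing notes name Bowtie 0.12.7 and hg19, and the methods name MACS as the peak finder. The authors deposited positions of 400 bp peaks only, with no score. A MACS cut-off of 1e-12 stands in the track lines of the Santa Cruz lists, whereas no cut-off is given for the R&D Systems lists. Each list comes from 1 library.

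Peaks were merged, chained and compared with Python 3.11.15, NumPy 2.4.6, SciPy 1.17.1 and pandas 2.3.3, and drawn with matplotlib 3.10.9. Counts of regions, chains and overlaps were checked with bedtools 2.31.1, and the functions were tested on simulated data. A region was on a Santa Cruz peak when they overlapped by 1 bp or more.

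Named chains are the 10 with the most regions and the 3 with the most FLyA-only, FLyB-only and shared regions, with ties going to the larger share of that class and then the shorter span (for the first 10, the shorter span). Chains of a single class, others with 6 FLyA-only regions, those near peak-free stretches, the groups of chains and those met most often by Santa Cruz peaks were named after their values were seen. The members and lists were chosen with earlier results of these data known. Gene lists and T-box motifs set out in the design need an annotation or genome of hg19 and were not run. Alternatives covered the gap, chain size, merging, chromosomes and peaks chained.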

Additional observations from a re-analysis of the deposited data

How the results depend on the processing

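With gaps of at most 5 kb there were 929 clustered regions in 166 chains, 10 of a single class, with 24.2% FLyA-only, 46.0% FLyB-only, and 9.56% (FLyA) and 17.3% (FLyB) on Santa Cruz peaks of the same medium. With gaps of at most 20 kb there were 6837 regions in 1009 chains, 38 of a single class, with 30.4% FLyA-only, 26.9% shared, and 4.64% and 12.4% on Santa Cruz peaks. Chains of 8 or more gave 614 regions in 65 chains, 0 of a single class, with 41.2% FLyB-only, 31.9% shared, and 9.42% and 16% on Santa Cruz peaks. Merging at 200 bp of overlap or more gave 29.1% FLyA-only and 26.3% shared. FLyA peaks alone gave 559 regions in 99 chains and FLyB peaks alone 1194 in 202. Without the 6 chains beside peak-free stretches, an alternative chosen after seeing the data, the FLyA share on Santa Cruz peaks was 4.06%. A share counts as moved when it leaves the counting interval of the reported value, and a count when it changes by over 1.5 times. Counts of regions and chains move with the gap and the chain size by construction. The cause of the other shifts was not tested. The other 34 of 62 values did not move by this measure, among them those on chromosomes 1 to 22 alone, without chromosome 17 (chosen after seeing the data) and with 200 bp of Santa Cruz overlap. FLyB-only regions outnumbered FLyA-only regions in chains under every alternative that gives both.

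The gene and motif alternatives were not run for want of an hg19 annotation or genome. No paired analysis was possible because the labels give no replicate numbers and the lists hold positions without values to fit. The media were set side by side within each antibody. Depth is unknown, so the lack of a call in 1 medium does not show the lack of binding there.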

Other observations

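Chained by the same rule, the Santa Cruz peaks of both media formed 8 chains of 5 or more regions, and 6 of them overlapped the 6 chains beside peak-free stretches. The other two, with no R&D Systems chain of 5 at their place, were chr2:132996133-133028638, with 9 regions from 8 FLyA and 4 FLyB peaks, and chr16:33952976-33976038, with 6 regions from 3 FLyA and 5 FLyB peaks. No further Santa Cruz chain was found among the other 463 R&D Systems chains.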
